A study of Mus musculus with 9 samples.

Results

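The 42 genes described here build, check and dispose of proteins in the endoplasmic reticulum (ER), or sense when that work is overloaded. They were found by matching each gene symbol to the symbols of the deposited expression table. Each of the 42 matched 1 of the table's 59445 features, and all 42 were among the 15288 features that passed the filter for low values (normalized reads of 10 or more in 4 or more libraries). By role they are 15 chaperones and folding enzymes, 6 stress sensors and transcription factors, 9 genes of the translocon and signal peptidase, 6 genes of N-glycosylation and 6 genes of ER-associated degradation.

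RNA sequencing was done on liver macrophages of male C57BL/6 mice, sorted by flow cytometry for F4/80 and CD11b out of the non-parenchymal fraction. All mice had received 1 intraperitoneal injection of carbon tetrachloride (CCl4, a liver toxin, 0.6 mg/kg as labelled; the unit of this dose could not be checked) 24 hours earlier. MAGL fl/fl controls gave 4 libraries (S1, S3, S4 and S5, all from mice of 11 weeks), and MAGL Mye-/- mice gave 5 libraries (S8 and S12 from mice of 11 weeks, S9, S10 and S11 from mice of 10 weeks). MAGL is monoacylglycerol lipase, which releases arachidonic acid and glycerol from the endocannabinoid 2-arachidonoylglycerol, and is encoded by Mgll. The design asks how its loss, labelled Mye-/-, goes with the transcriptome of liver macrophages after acute injury; the sources used here do not say what drives the deletion or which part of the gene is lost. No uninjected mice are among the libraries, so every level below is one of CCl4-injured liver.

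Proteins bound for secretion or for membranes enter the ER through the Sec61 channel, lose their signal peptide to signal peptidase, receive N-linked sugars from the oligosaccharyltransferase and fold with the help of chaperones and disulfide isomerases. Chains that do not fold are pulled back to the cytosol and degraded. When unfolded chains pile up, the sensors IRE1 (gene Ern1), PERK (Eif2ak3) and ATF6 start the unfolded protein response: XBP1 and ATF6 switch on chaperone genes, while PERK slows translation and favours ATF4 and CHOP (Ddit3). Macrophages make lysosomal enzymes, surface receptors and cytokines on this route.

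Library totals ran from 33383559 to 46489349 reads, and values are normalized reads, that is reads divided by 1 size factor per library by the authors. Mgll itself was at 18.6, 0, 106 and 22.8 in the controls S1, S3, S4, S5 and at 30.4, 46.6, 5.93, 42.7 and 0 in Mye-/- S8 to S12, levels too low to check the labels. Of 6 macrophage markers, among them Itgam (41570 to 55474 in fl/fl and 42570 to 54211 in Mye-/-), Adgre1 and Csf1r, 5 were higher in Mye-/- and the median log2 difference was 0.11. The other one, Lyz2, ran from 221530 to 422118 in fl/fl and from 143570 to 204782 in Mye-/-. The 7 recruited monocyte markers summed to 553362 to 824137 in fl/fl and 565479 to 926396 in Mye-/-, overlapping. Of these 5 were lower, 1 of them at an unadjusted limma p under 0.05, and 2 higher (median log2 -0.055). The 8 Kupffer cell markers summed to 173 to 753 in fl/fl and 309 to 1821 in Mye-/-, overlapping. Of the 5 tested 4 were higher, 3 of them at an unadjusted limma p under 0.05, and 1 was lower, also under 0.05. Their median log2 difference was 2.71, and Timd4 was at 0 in all libraries except S12. The summed level of 8 neutrophil markers was 24504 to 45050.2 in fl/fl and 12184 to 33551 in Mye-/-, with Ly6g at 0 in 8 of 9 libraries. Of the 4 tested 3 were lower, 2 of them at an unadjusted limma p under 0.05, and 1 was higher (median log2 -1.01). The sum of 8 hepatocyte markers was 659 to 1888 in fl/fl and 1197 to 10844 in Mye-/-, highest in S10. All 6 tested were higher, 2 of them at an unadjusted limma p under 0.05 (median log2 1.19). The markers of erythroid cells and platelets, 3 lower and 3 higher, summed to 4658 to 25691 in fl/fl, where S3 was highest, and to 2077 to 4765 in Mye-/-. Most of that sum was globin (Hba-a1 1858 to 11962 and 902 to 1630.1), while the platelet gene Pf4 was at 107 to 328 and 158 to 351. The 8 B and plasma cell markers with a row summed to 138 to 720 in fl/fl and 166 to 840 in Mye-/-; Jchain ran from 0 to 544 (S3) in fl/fl and from 0 to 627 (S9) in Mye-/-, and Mzb1 was at 0 in all libraries except S11 and S12. Siglech, Xcr1 and Lrat (plasmacytoid dendritic, conventional dendritic and stellate cells) were at 0 throughout. The part of these cells in the results below was not tested, and in sorted bulk RNA fewer cells of a type and less RNA per cell cannot be told apart.

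The machinery that imports, glycosylates and folds proteins was lower in Mye-/- macrophages in 29 of 30 genes. Its median log2 difference was -0.31. The stress sensors and the degradation genes were lower in 5 of 12, with a median of 0.03. Among all tested features 45.4% were lower, and 51.9% of those with a mean of at least 1000. Counts and medians of roles were not tested. All controls were 11 weeks old but 3 of the 5 Mye-/- mice 10 weeks. With age in the model the counts were 26 of 30 (median -0.18) and 7 of 12 (median -0.06). Of further genes on the same route, described below, translocation genes were lower in 7 of 14 and degradation genes in 13 of 18. Folding genes were lower in 14 of 19 and glycosylation genes in 12 of 13. The contrast thus holds for the genes picked, not for every gene of these roles. No single gene passed limma's threshold (Benjamini-Hochberg adjusted p under 0.05 over all 15288 features): the smallest adjusted p was 0.218. Over all features limma called 0% as lower and 0.0196% as higher.

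At an unadjusted p under 0.05 limma had 17 of the 42 genes lower and 2 higher in Mye-/-, beside 4.13% lower and 6.38% higher among all tested features. Because 41 of the 42 genes have a mean of at least 1000 normalized reads, the closer background is the 5203 features at that level, of which 8.46% were lower and 8.46% higher. With age in the model the 17 genes became 2 (against 2.23% of all features), and in the 11-week mice alone 1 (against 1.75%). The share of the 5203 was not computed under these settings, so these counts lack the closer background. All 17 lie among the 30 import, glycosylation and folding genes, and both genes on the higher side, Ern1 and Atf6, are sensors. Every Mye-/- library lay below every fl/fl library in 8 genes (Hsp90b1, Dnajc3, Creld2, Pdia3, Pdia4, Ssr1, Rpn1 and Ddost), or 19.0% of the 42, against 1.6% of all features and 3.17% of those with a mean of at least 1000. The reverse held for Ern1 alone, against 1.7% and 2.27%. In total 34 of the 42 log2 differences were negative, against 45.4% of all features and 51.9% of the highly expressed ones.

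DESeq2 on the whole reads, an alternative test, called 7 of the 42 genes lower and 0 higher, while it called 0.432% of all features lower and 0.373% higher. Of the closer background, the 5203 features with a mean of at least 1000, it called 66 lower and 56 higher. The 7 were Rpn1, Pdia3, Pdia4, Dnajc3, Sdf2l1, Ddost and Hsp90b1. Those calls depended on the libraries: leaving out 1 library at a time left between 0 (without fl/fl S4) and 12 (without Mye-/- S8), and with age in the model or in the mice of 11 weeks alone none of the 42 was called. edgeR's quasi-likelihood test, on the same reads, called none, with a smallest adjusted p of 0.283. Over the 24 alternatives tried, the highest adjusted p of each of the 7 was 0.976, in limma on the 11-week mice.

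**Figure D1:**
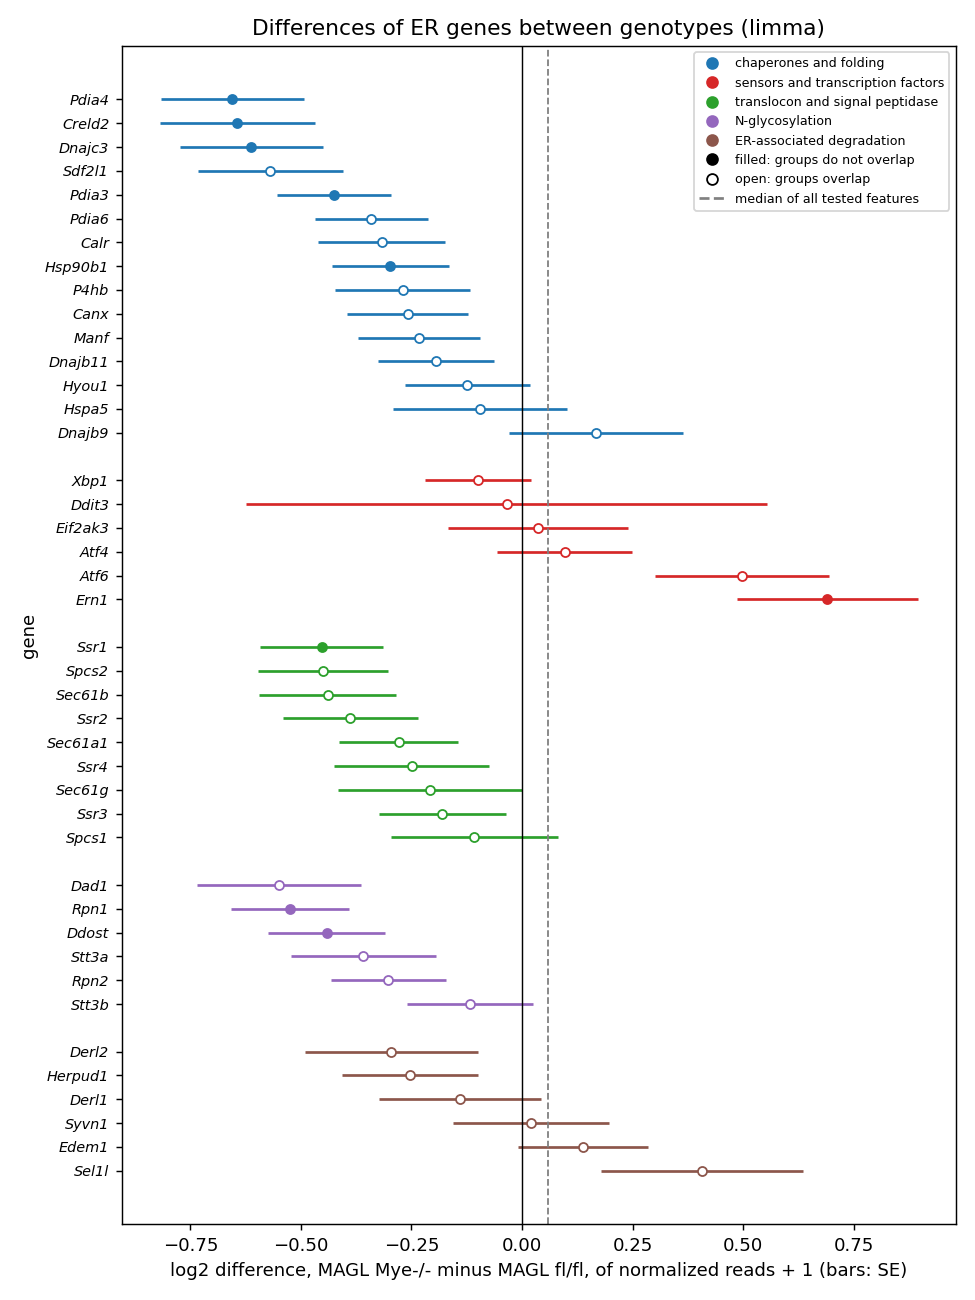
Log2 difference in normalized reads + 1 (x axis, MAGL Mye-/- minus MAGL fl/fl, limma, bars are standard errors) of each of the 42 genes (y axis), coloured by role. Chaperone, translocon and glycosylation genes lie left of 0 except Dnajb9, while sensors and degradation genes lie on both sides; filled points mark the 9 genes whose groups do not overlap, and the dashed line is the median of all tested features, 0.06.

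The chaperones and folding enzymes were lower in 14 of 15 genes, with a median log2 difference of -0.30 and a range from -0.65 to 0.17. Of these 15, 8 were lower at an unadjusted limma p under 0.05, and 5 did not overlap between the groups. Among features with a mean of at least 1000 these shares were 8.46% and 3.17%. With age in the model Dnajc3 alone of the 15 stayed under 0.05. The largest differences belonged to co-chaperones and disulfide isomerases rather than to the master chaperone BiP (Hspa5).

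Pdia4 (chr6:47794394-47813512, mm10), a protein disulfide isomerase that forms and reshuffles disulfide bonds, stood at 9187, 9909, 11124 and 11329 normalized reads in the controls (always in the order S1, S3, S4, S5, and ahead of Mye-/-) and at 7804, 6331, 6031, 4732 and 8699.8 in Mye-/- S8 to S12. The highest Mye-/- library, S12, lay below the lowest fl/fl library, S1. The log2 difference was -0.65 ± 0.16 (SE), or 36.5% less (limma adjusted p = 0.218, DESeq2 adjusted p = 0.0216); with age in the model it was -0.33 ± 0.18 and DESeq2 made no call. Pdia3 (chr2:121413902-121438684), the isomerase that works with calnexin and calreticulin on glycoproteins, was at 29684, 35402, 33977 and 35875 in fl/fl and 26407, 22663, 24324, 23296 and 29090.5 in Mye-/-. Again the groups did not overlap, though S12 came close to fl/fl S1. Its log2 difference was -0.43 ± 0.13 (SE; limma adjusted p = 0.273, DESeq2 adjusted p = 0.0121).

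Creld2 (chr15:88819644-88826681), an ER-stress-inducible isomerase-like protein, was the steadiest gene of the set among controls, at 3456, 3479, 3602 and 3643. In Mye-/- it was at 2626, 2303, 2336, 1497 and 2838, all below the controls and more scattered (coefficients of variation 2.58% and 22%). The log2 difference was -0.64 ± 0.18 (SE; limma adjusted p = 0.218, DESeq2 adjusted p = 0.0591). Dnajc3 (chr14:118937932-118981702), the ER co-chaperone also known as p58IPK, was at 3395, 3080.4, 4148 and 2966 in fl/fl and 2553, 2145, 1756, 2272 and 2374 in Mye-/-. Its groups did not overlap, and the fitted difference was 34.6% less (log2 -0.61 ± 0.16, limma adjusted p = 0.218, DESeq2 adjusted p = 0.0303). Sdf2l1 (chr16:17130138-17132383), which forms a complex with ER J-proteins, was at 6482, 12134, 9239 and 10545 in fl/fl and 6943, 6518, 5385, 5834 and 7019.8 in Mye-/-. Here fl/fl S1 was as low as the Mye-/- libraries and 3 of those exceeded it, while the other 3 controls were above all of them. The log2 difference was -0.57 ± 0.16 (SE; limma adjusted p = 0.256, DESeq2 adjusted p = 0.032).

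The abundant chaperones differed less. Hsp90b1 (chr10:86690209-86705510), or GRP94, the HSP90 of the ER that folds Toll-like receptors and integrins, was at 69243, 58595, 65903 and 61799.9 in fl/fl and 53973, 50210.5, 52192, 47677 and 55743 in Mye-/-. The groups were apart, with 18.6% less in Mye-/- (log2 -0.30 ± 0.13, limma adjusted p = 0.452, DESeq2 adjusted p = 0.0472), and 10% of its exon bases overlap 1810014B01Rik on the opposite strand. Hspa5 (chr2:34772090-34777547), the HSP70 of the ER and the usual yardstick of ER stress, was at 37243, 79159.7, 69006 and 67155 in fl/fl and 73685, 56184, 55466, 47141 and 55146 in Mye-/-. The control library S1 was the lowest of all 9 and S3 the highest, so the groups overlapped fully (log2 -0.10 ± 0.20, limma adjusted p = 0.895). Without S1 the difference was -0.33, with an unadjusted limma p under 0.05, whereas without S3 it was 0.03 and with age in the model 0.07, both on the higher side.

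The remaining folding genes were Pdia6 (log2 -0.34 ± 0.13), P4hb (-0.27 ± 0.15), the lectin chaperones Calr (-0.32 ± 0.14) and Canx (-0.26 ± 0.14), the secreted stress factor Manf (-0.23 ± 0.14), the J-protein Dnajb11 (-0.20 ± 0.13) and the BiP exchange factor Hyou1 (-0.12 ± 0.14), each ± SE. Pdia6 and Calr had an unadjusted limma p under 0.05, and limma adjusted p ran from 0.356 (Pdia6) to 0.796 (Hyou1). Dnajb9, the J-protein also called ERdj4 that restrains IRE1, was the only one of the 15 with a positive difference, at 4278, 3968, 3146 and 3624 in fl/fl and 7288, 4006, 3758, 3586 and 3281 in Mye-/-. Its positive sign came from S8 alone: the other 4 Mye-/- libraries lay within the range of the controls, and without S8 all 30 import, glycosylation and folding genes were lower.

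**Figure D2:**
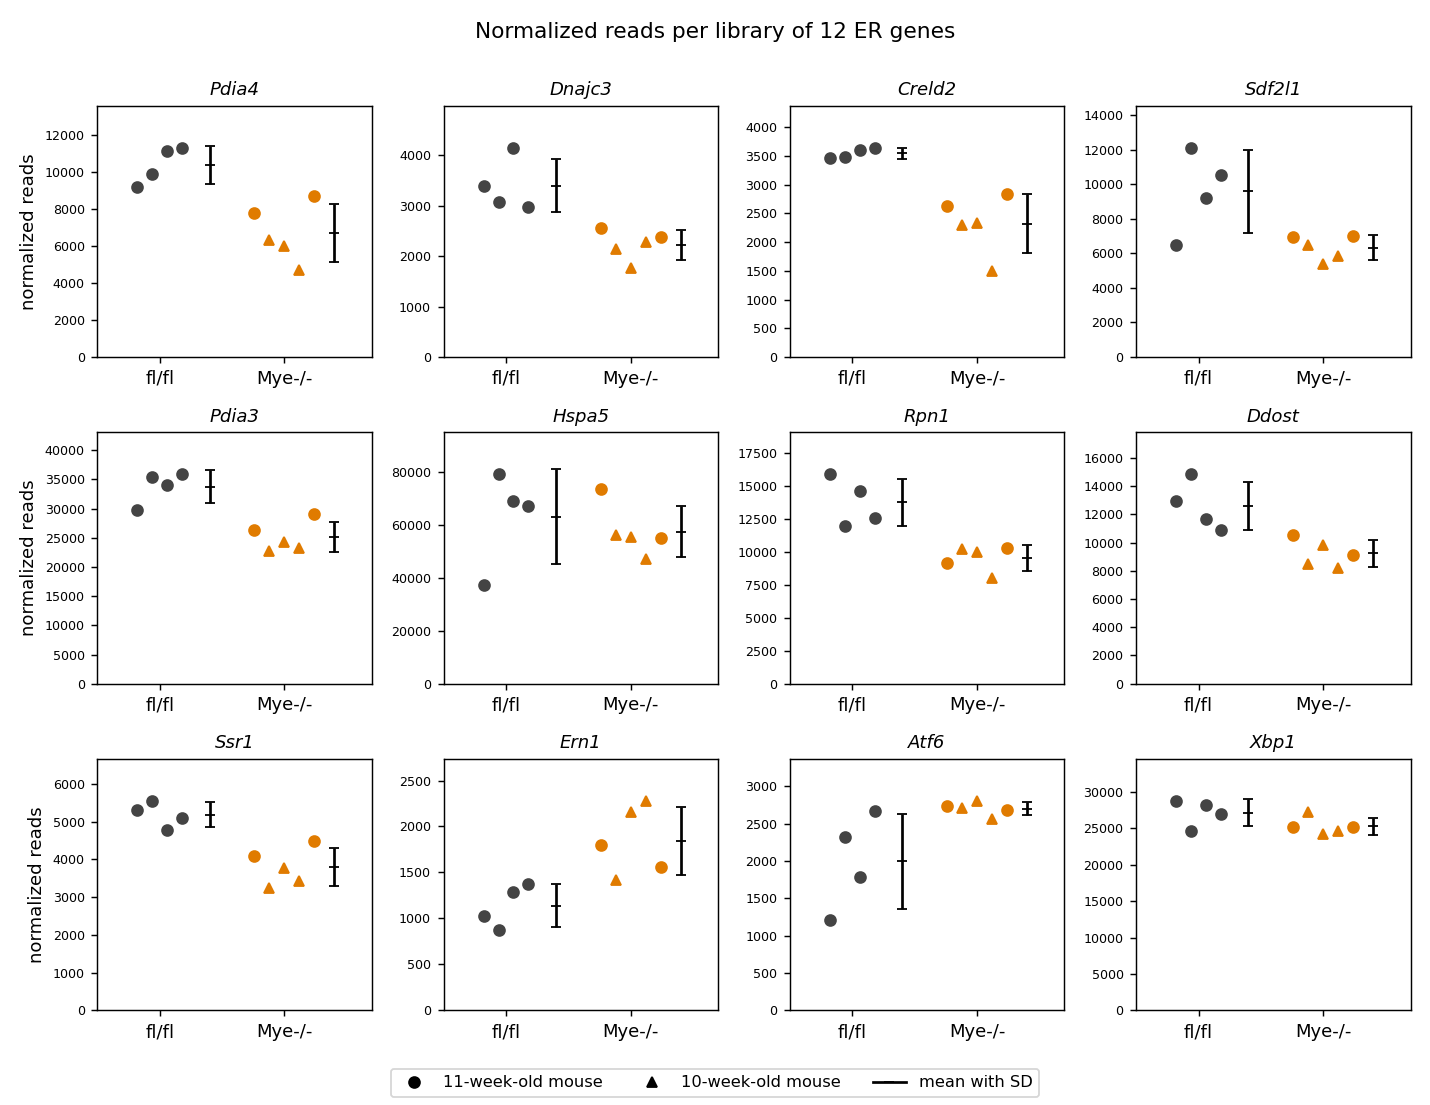
Normalized reads (y axis, from 0) of 12 of the 42 genes in each library, by genotype; circles are mice of 11 weeks, triangles mice of 10 weeks, and the bars beside the points are the mean with SD. Pdia4, Dnajc3, Creld2, Pdia3, Rpn1, Ddost and Ssr1 are lower in every Mye-/- library, Ern1 is higher in every one, and Hspa5, Sdf2l1, Atf6 and Xbp1 overlap, S1 being the lowest control in the first 3 of these.

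Many folding genes share a promoter sequence, the ER stress response element (ERSE: CCAAT, 9 bases of any kind, CCACG), through which ATF6 and XBP1, with the CCAAT-binding factor NF-Y, switch them on. RefSeq promoter windows (GRCm38.p6, the assembly of mm10; 250 bases before to 50 after the start of transcription) matched 36 of the 42 genes; Manf, Hyou1, Sec61a1, Derl1, Ssr2 and Atf6 were without a window. The letters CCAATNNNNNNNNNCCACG stood on one strand or the other in 8 of the 36 windows (22.2%), against 37 of the 27025 genes with a window (0.137%). Because the element is known from folding genes and the 42 were picked by role, the higher share is no finding of these data. The stretches below hold those matches, shown 5′ to 3′ on the gene's strand because ATF6 and XBP1, described further on, act through this element. Capitals mark the CCAAT and CCACG parts, or ATTGG and CGTGG where the element runs on the opposite strand.
Hspa5, chr2:34772010-34772058, plus strand: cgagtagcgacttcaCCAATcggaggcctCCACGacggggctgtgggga
Creld2, chr15:88819505-88819553, plus strand: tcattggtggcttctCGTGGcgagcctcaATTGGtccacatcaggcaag
Dnajc3, chr14:118937812-118937860, plus strand: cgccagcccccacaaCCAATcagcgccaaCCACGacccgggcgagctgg
Pdia6, chr12:17266476-17266524, plus strand: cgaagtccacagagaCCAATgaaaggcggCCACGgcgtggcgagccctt
Calr, chr8:84847060-84847108, minus strand: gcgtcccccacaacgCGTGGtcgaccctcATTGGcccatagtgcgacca
Canx, chr11:50325785-50325833, minus strand: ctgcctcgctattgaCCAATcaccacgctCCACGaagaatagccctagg
Syvn1, chr19:6046517-6046565, plus strand: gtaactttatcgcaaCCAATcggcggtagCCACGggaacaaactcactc
Hsp90b1, chr10:86705518-86705671, minus strand: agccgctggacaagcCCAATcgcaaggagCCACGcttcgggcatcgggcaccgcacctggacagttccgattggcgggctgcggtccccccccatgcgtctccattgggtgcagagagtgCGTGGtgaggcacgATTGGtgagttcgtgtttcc

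Hsp90b1 holds the element in duplicate, once in each orientation, at -212 to -194 and -107 to -89 from the start of transcription. In the other 7 genes the match lies between -162 (Calr) and -26 (Syvn1). The 8 genes with the element ranged in log2 difference from -0.64 (Creld2) to 0.02 (Syvn1), with a median of -0.31, and 7 of 8 were lower. The 28 matched genes without it had a median of -0.25, and 22 of 28 were lower; the 2 sets were not compared by a test. Pdia4 and Rpn1, whose limma p was the smallest, have no such match in this window. A related element, ERSE-II (ATTGG, 1 base, CCACG), stood in Herpud1 at -52 to -42 and in Dnajb11 at 8 to 18 (5.56% of the 36, 0.0444% of all genes). The ATF6 and XBP1 site TGACGTG stood in Hspa5 alone at -157 to -151 (2.78% of the 36, 2.22% of all genes). Both strands were searched, and no match overlapped another.

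The genes of the translocon and signal peptidase were lower in 9 of 9, with log2 differences from -0.45 to -0.11 and a median of -0.28. Of the 9, 4 had an unadjusted limma p under 0.05 and 1 did not overlap between the groups. Among features with a mean of at least 1000, 8.46% were lower at that p and 3.17% did not overlap on the lower side. With age in the model none of the 9 was under 0.05. Ssr1 (chr13:37966603-37994208), the alpha subunit of the translocon-associated protein complex, was at 5318, 5547, 4787 and 5086 in fl/fl and 4102, 3238, 3787, 3418 and 4492 in Mye-/-. Its groups were apart (log2 -0.45 ± 0.14, 27% less, limma adjusted p = 0.273, DESeq2 adjusted p = 0.0651). Ssr2, the beta subunit, was at 7519, 6606, 6164 and 5344 and 6034, 4975, 4815, 3694 and 5077, with S8 alone inside the control range (log2 -0.39 ± 0.15, limma adjusted p = 0.389); 13% of its exon bases overlap the pseudogene Gm10704 on the opposite strand. The gamma and delta subunits, Ssr3 and Ssr4, had smaller differences (-0.18 ± 0.14 and -0.25 ± 0.18), and in both S8 stood far above the other Mye-/- libraries.

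Spcs2 (chr7:99837569-99858897), an accessory subunit of signal peptidase, was at 13193, 12067, 9184 and 10871 in fl/fl and 10439.6, 7478, 7923, 6908 and 8795 in Mye-/-. Only S8 reached the control range (log2 -0.45 ± 0.15, limma adjusted p = 0.314); a near-identical copy, Spcs2-ps, may share its reads. Its partner Spcs1 differed by -0.11 ± 0.19. Sec61b, the beta subunit of the protein-conducting channel, was at 13827, 17545, 12634 and 16185 in fl/fl and 15349.5, 10441, 8830.1, 10855 and 10498 in Mye-/-. S8 alone was above the lowest control (log2 -0.44 ± 0.16, limma adjusted p = 0.332), and reads of this short gene may be shared with Gm10320, Gm33666 and Gm5870. Sec61a1, the pore itself, differed by -0.28 ± 0.13, and Sec61g, which also has near-identical copies, by -0.21 ± 0.21.

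The 6 genes of N-glycosylation, all subunits of the oligosaccharyltransferase, were lower in 6 of 6 and had the lowest median of the 5 roles, -0.40 (range -0.55 to -0.12). Of the 6, 5 had an unadjusted limma p under 0.05, against 8.46% lower at that p among features with a mean of at least 1000. With age in the model Rpn1 alone of the 6 stayed under 0.05. Rpn1 (chr6:88084473-88105304), ribophorin I, which holds substrates for the catalytic subunit, was at 15885, 11947, 14593 and 12605 in fl/fl and 9125, 10250.3, 10006, 8022 and 10314 in Mye-/-. The groups were well apart, the highest Mye-/- library being S12 and the lowest control S3. Means ± SD were 13757 ± 1810.2 and 9543 ± 974 (n = 4 and n = 5), 30.5% less (log2 -0.52 ± 0.13, limma adjusted p = 0.218, DESeq2 adjusted p = 0.00651). Rpn1 was the member DESeq2 called under most settings, losing the call without fl/fl S4, with age in the model and in the 11-week mice alone.

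Ddost (chr4:138304736-138312612), the subunit also called OST48, was at 12929.9, 14834, 11684 and 10914 in fl/fl and 10542, 8484, 9837, 8233 and 9133 in Mye-/-. S8 came close to the lowest control, S5, without reaching it (log2 -0.44 ± 0.13, limma adjusted p = 0.268, DESeq2 adjusted p = 0.0336). Dad1 (chr14:54235487-54253929), a small subunit whose loss leads to cell death, was at 5119, 3190.3, 2923 and 3688 and 2416, 1865, 2808, 2435 and 3104. The control S1 was far above the rest and S12 lay inside the control range (log2 -0.55 ± 0.19, limma adjusted p = 0.321). Rpn2, ribophorin II, was at 14572, 11369, 13291 and 11962 and 10533, 9909, 10914, 8781 and 11759, with S12 alone above the lowest control (log2 -0.30 ± 0.13, limma adjusted p = 0.437). Of the catalytic subunits, Stt3a, which acts while the chain is being imported, differed by -0.36 ± 0.16 and Stt3b, which acts afterwards, by -0.12 ± 0.14; the difference between these 2 was not tested.

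The sensors and transcription factors did not share the direction of the folding genes: 2 of 6 were lower, and the median was 0.07. Ern1 (chr11:106394651-106487855), the sensor kinase and RNase IRE1 that splices Xbp1 mRNA, was at 1031, 873, 1285 and 1374 in fl/fl and 1799, 1422, 2159, 2276 and 1554 in Mye-/-. Every Mye-/- library was above every control, with a fitted difference of 61.4% more (log2 0.69 ± 0.20, limma adjusted p = 0.267, DESeq2 adjusted p = 0.0859). The lowest Mye-/- library, S9, lay just above the highest control, S5. Leaving out S1 and S3 together took the log2 difference to 0.45 and the unadjusted limma p above 0.05.

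Atf6 (chr1:170704457-170867771), the sensor that is cut in the Golgi to release a transcription factor, was at 1209, 2322, 1779 and 2667 in fl/fl and 2732, 2707, 2801, 2567 and 2687 in Mye-/-. The Mye-/- libraries were almost level (coefficients of variation 32% and 3.16%), whereas the controls ran from 1209 in S1 to a value inside the Mye-/- range in S5. The log2 difference of 0.50 ± 0.20 (limma adjusted p = 0.389) became 0.28 without S1. Eif2ak3 (chr6:70844515-70905241), PERK, was at 2593, 4113, 2137 and 2086 in fl/fl and 2049.6, 2756, 3471, 2479 and 2911 in Mye-/-. Its means were 2732 and 2733, and the spread within each group was wide (log2 0.04 ± 0.20, limma adjusted p = 0.968).

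Xbp1 (chr11:5520641-5525992), whose spliced form is the main activator of folding and import genes, was at 28710.2, 24571, 28188 and 26904 in fl/fl and 25100.2, 27145, 24172, 24655 and 25216 in Mye-/-. Values were tight and the groups overlapped (log2 -0.10 ± 0.12, limma adjusted p = 0.811); the table gives 1 value per gene and does not separate spliced from unspliced Xbp1. Atf4, which carries the PERK signal to amino acid genes, was at 23154, 15249, 14259.9 and 17680.1 and 19767, 22645, 17109, 16274 and 17241, overlapping fully (log2 0.10 ± 0.15, limma adjusted p = 0.859). ATF4 is governed largely by translation, which these data do not measure. Ddit3, the pro-apoptotic factor CHOP, was the lowest and most scattered of the 42 genes, at 101, 121, 407 and 265 and 152, 369, 269, 86.5 and 170.0. Coefficients of variation were 63.8% and 52.8%, and its log2 difference of -0.03 ± 0.59 (limma adjusted p = 0.991) leaves a wide margin on both sides.

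ER-associated degradation showed no common direction either: 3 of 6 genes were lower, the median was -0.06, and none had an unadjusted limma p under 0.05. Sel1l (chr12:91806043-91849157), the scaffold of the HRD1 ligase, was at 953, 1779, 1846 and 2387 in fl/fl and 2257, 2344, 2798, 1680.3 and 2035 in Mye-/-. The control S1 had less than any other library, and the log2 difference of 0.41 ± 0.23 (limma adjusted p = 0.547) was 0.14 without it. Herpud1, a stress-induced adaptor of the same ligase, was at 3106, 4109.6, 3579.8 and 2614 and 2792, 2707, 2987, 2649 and 2741, level in Mye-/- but scattered in fl/fl (log2 -0.25 ± 0.15, limma adjusted p = 0.575; -0.15 without S3). Derl2, a channel-like derlin, was at 1590.0, 1182, 1624 and 1262 and 1103, 1399, 955, 1093 and 1201 (log2 -0.30 ± 0.20, limma adjusted p = 0.617). Its groups overlapped. Edem1, a lectin that marks misfolded glycoproteins, was at 5152, 7579, 6232 and 7043 and 9015, 6598, 6606, 6982 and 6493, with S8 the highest of all 9 libraries (log2 0.14 ± 0.15, limma adjusted p = 0.778). Its difference was 0.05 without S8, 0.03 without fl/fl S1, 0.22 without S3 and 0.25 with age in the model. The ligase Syvn1 (HRD1) differed by 0.02 ± 0.18, and its Mye-/- values lay on both sides of a narrow control range. Derl1 differed by -0.14 ± 0.18, with fl/fl S1 the highest library, and by 0.10 without it; a near-identical copy, Gm35638, may share its reads.

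**Figure D3:**
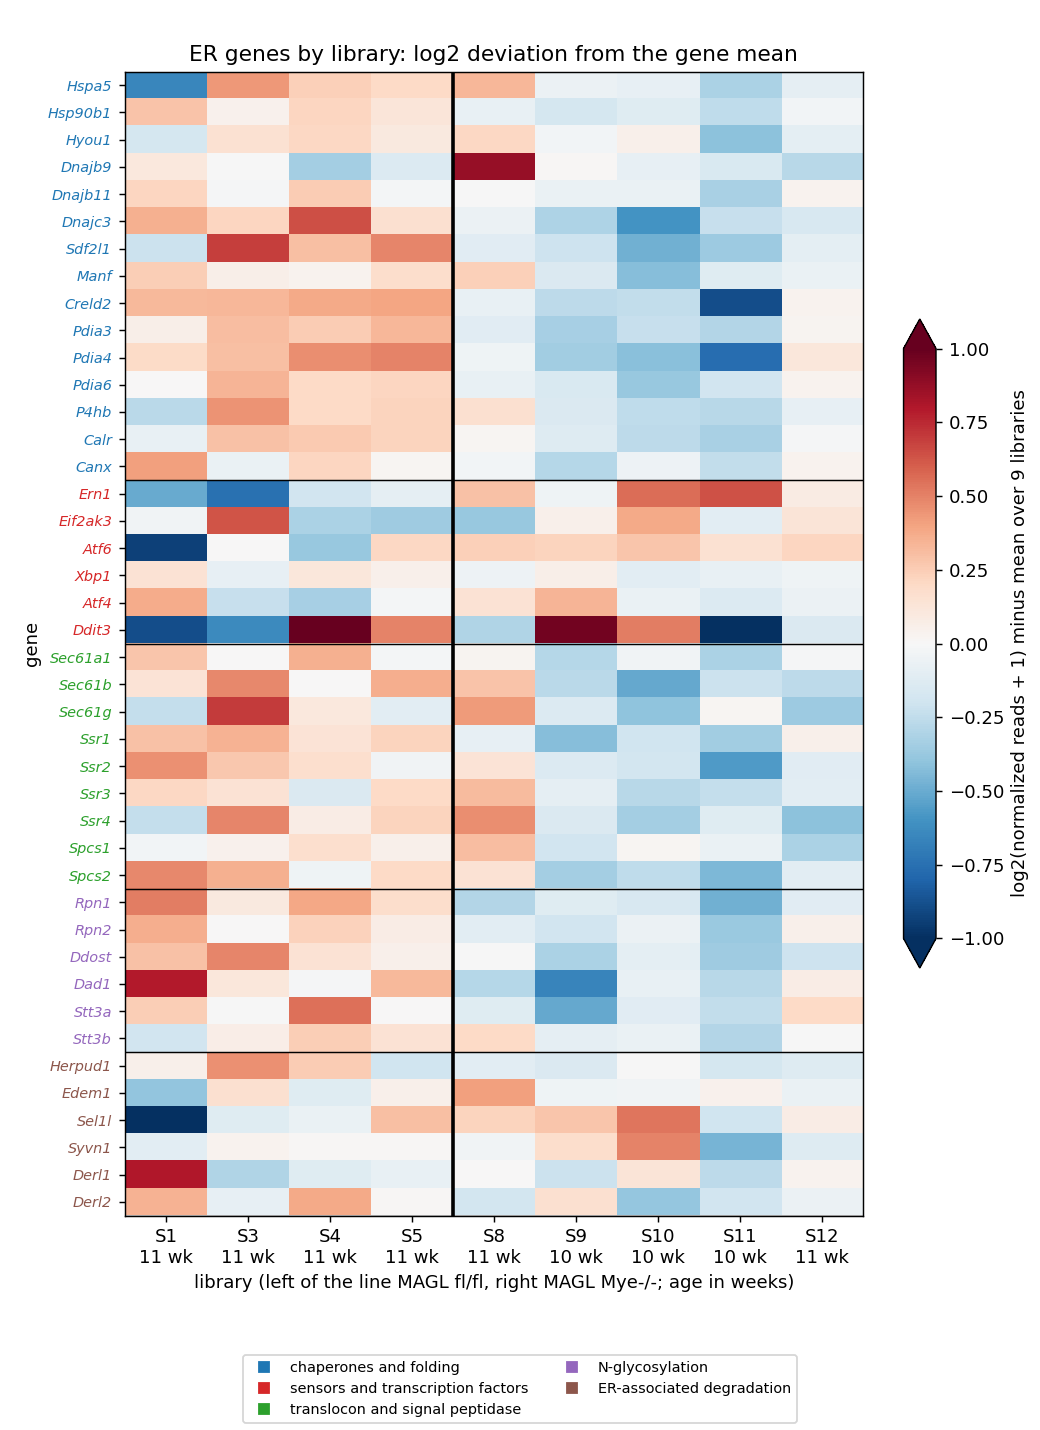
Deviation of each of the 42 genes (rows, coloured by role) from its own mean over 9 libraries, on the log2 scale of normalized reads + 1 (red above, blue below; colours end at -1 and 1), per library (columns, with genotype and age). Red left of the line and blue right of it prevail in the chaperone, translocon and glycosylation rows; S11 is the bluest column, S8 the least blue of the Mye-/- columns, and S1 departs from the other controls in Hspa5, Atf6, Sel1l and Derl1.

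Within each genotype single libraries stood apart. Mye-/- S11 had the lowest value of 16 of the 42 genes, 14 of them among the 30 import, glycosylation and folding genes, whereas it was lowest for 7.28% of features with a mean of at least 1000. Control S3 had the highest value of 12 of the 42, against 14.0% of those features; S1 had that of 11, a share equal to its 26.2% among those features. S1 departed from the other controls in both directions: it was the lowest control for Hspa5, Sdf2l1, Atf6 and Sel1l and the highest for Dad1, Rpn1 and Derl1. S1 was also the smallest library, and S3 had the largest mitochondrial share of reads, 9.45%, against 3.49% to 7.09% in the others.

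Within the Mye-/- group the libraries of younger mice lay lower. The mean of the 3 libraries of 10-week mice was below that of the 2 libraries of 11-week mice in 30 of the 30 import, glycosylation and folding genes, against 53.1% of features with a mean of at least 1000. In the sensors this held for 1 of 6 genes and in the degradation genes for 3 of 6. All 3 libraries of 10-week mice lay below all controls in 19 of the 42 genes (7.88% of highly expressed features), and both libraries of 11-week Mye-/- mice in 8 (7.05%). Since those 8 are the genes whose groups do not overlap at all, S8 and S12 set that count.

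Age and genotype were partly tied, because all controls were 11 weeks old. With age in the limma model, or with the 6 libraries of 11-week mice alone, 33 of the 42 genes were on the lower side (44.7% of all features in the age model and 44.7% in the 11-week mice) and the median of the 42 was -0.14. Both settings set S8 and S12 against the 4 controls and give the same log2 differences, so they are not separate checks. The mean of normalized reads in S8 and S12 was below that of the controls in 33 of the 42 genes. For features with a mean of at least 1000 this held in 53.5%. The genes lower at an unadjusted limma p under 0.05 were then Rpn1 and Dnajc3 with age in the model and Rpn1 in the 11-week mice. Of the 30 import, glycosylation and folding genes, 20 had a log2 difference smaller by over 1.5 times with age in the model, 1 (Dnajb9) a larger one, and Hspa5, Ssr3 and Stt3b turned from negative to positive (0.07, 0.0033 and 0.03). Among the genes described above, Creld2 was then at -0.38 ± 0.21 (SE), Pdia3 at -0.28 ± 0.17, Ssr1 at -0.27 ± 0.17, Ssr2 at -0.20 ± 0.19, Spcs2 at -0.23 ± 0.18, Sec61b at -0.23 ± 0.20 and Rpn2 at -0.19 ± 0.17. Rpn1 (-0.49 ± 0.18), Dnajc3 (-0.45 ± 0.21), Sdf2l1 (-0.42 ± 0.21), Ddost (-0.35 ± 0.18), Dad1 (-0.41 ± 0.24) and Hsp90b1 (-0.22 ± 0.18) moved by less than 1.5 times. What remains with age in the model is a difference between mice labelled with the same age, and it rests on S8 and S12 alone. The 10-week Mye-/- mice had no controls of their age, so their difference from the controls cannot be divided between age and genotype.

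**Figure D4:**
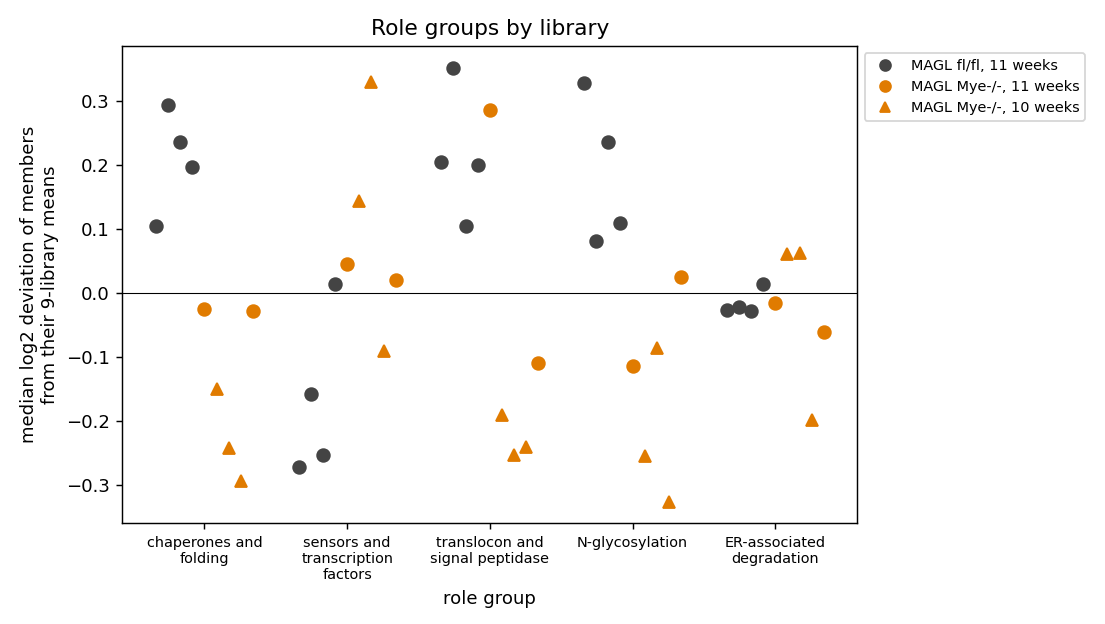
Median deviation of the genes of each role from their 9-library means (y axis, log2) in each library, by role (x axis); black circles are fl/fl, orange circles 11-week Mye-/- and orange triangles 10-week Mye-/- mice. In the chaperone group the controls sit at 0.10 to 0.29, the 11-week Mye-/- libraries at -0.03 and the 10-week ones at -0.15 to -0.29; for the sensors the controls sit at -0.27 to 0.01 and Mye-/- at -0.09 to 0.33, overlapping, and the degradation genes overlap fully.

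As a share of all reads the 42 genes took 1.51% ± 0.064 (SD, n = 4) in fl/fl and 1.30% ± 0.102 (SD, n = 5) in Mye-/-. Ranges were 1.44% to 1.59% and 1.15% to 1.40%, without overlap. Chaperones made up most of this, 0.958% ± 0.083 against 0.813% ± 0.072, followed by the translocon genes (0.223% ± 0.0079 and 0.187% ± 0.0235) and N-glycosylation (0.135% ± 0.0132 and 0.106% ± 0.0112). The chaperone shares overlapped (lowest fl/fl 0.844%, highest Mye-/- 0.884%), as did those of the translocon genes (0.212% and 0.226%). Those of N-glycosylation did not (0.122% and 0.119%). The sensors took 0.131% ± 0.0131 and 0.136% ± 0.0102, and the degradation genes 0.0624% ± 0.0049 and 0.0625% ± 0.0057, level between genotypes.

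Per kilobase of the principal GENCODE transcript, the highest mean levels in fl/fl were those of Calr (30719 normalized reads per kb), Sec61b (26680.3), Hsp90b1 (22614) and Hspa5 (17195). Transcripts of the factors Xbp1 (12726) and Atf4 (10195) were far above those of the sensors Eif2ak3 (605), Atf6 (275) and Ern1 (164). The lowest 4 per kilobase were Ern1, Ddit3 (251), Atf6 and Sel1l (276). In Mye-/- Calr was again the highest (24636), while Ddit3 (235) was below Ern1 (265).

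Around the 42 genes stand others of the same route, taken from 6 lists of 114 symbols, of which 107 have a row and 102 were tested. Limma and edgeR called none of the 102, 71 were lower and 31 higher, the median was -0.14, and 20 were lower and 3 higher at an unadjusted limma p under 0.05. Among all tested features 45.4% had a negative difference, and 4.13% were lower and 6.38% higher at that p. For features with a mean of at least 1000 these shares were 51.9%, 8.46% and 8.46%. The same shares are the background of each list below. DESeq2 called Vcp, Sec11a and Spcs3 lower and Atf3 higher, beside 0.432% of all features lower and 0.373% higher.

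Among other degradation genes 13 of 18 were lower (median -0.15), led by Vcp, the p97 ATPase that extracts proteins from the ER membrane. Vcp was at 14873, 8803, 10955 and 8539 in fl/fl and 6382, 7354, 6729, 6062 and 6439.9 in Mye-/-, without overlap (log2 -0.68 ± 0.16, limma adjusted p = 0.186, DESeq2 adjusted p = 0.00477). The ubiquitin-conjugating enzyme Ube2j2 followed, at -0.45 ± 0.16. Other translocation genes were split, 7 lower and 7 higher (median -0.15), but 6 were lower at an unadjusted limma p under 0.05. These include the signal peptidase subunits Sec11a, the catalytic one, at 6651, 5769, 4502 and 5318 and 4052, 3364, 3986, 3792 and 4359 (log2 -0.50 ± 0.14, DESeq2 adjusted p = 0.04), and Spcs3, at 10642, 9814, 10047 and 9373 and 8691, 7353, 6525, 7248 and 8257 (log2 -0.39 ± 0.13, DESeq2 adjusted p = 0.0496). In both the groups were apart.

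Other glycosylation and glycan-trimming genes were lower in 12 of 13 (median -0.22), with the oligosaccharyltransferase subunits Ostc (-0.46 ± 0.14) and Tmem258 (-0.39 ± 0.15) at the smallest p. Other folding enzymes and chaperones were lower in 14 of 19 (median -0.17), led by the prolyl isomerase Fkbp2 (-0.43 ± 0.17) and by Erp29 (-0.33 ± 0.13), a thioredoxin-fold chaperone. ER export and retrieval genes were lower in 15 of 18 (median -0.15), led by Kdelr1 (-0.64 ± 0.20), the receptor that returns escaped chaperones to the ER, and the cargo receptor Tmed2 (-0.32 ± 0.14).

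The list for the integrated stress response holds its targets along with the eIF2 kinases Eif2ak1, Eif2ak2 and Eif2ak4, their substrate Eif2s1 and the phosphatase subunit Ppp1r15b. Its genes were lower in 10 and higher in 10 of 20, with a median of -0.005. At the smallest p stood Psat1, an enzyme of serine synthesis, at 688, 1183, 829.3 and 634 in fl/fl and 539, 479, 437, 286 and 434 in Mye-/- (log2 -0.92 ± 0.29, limma adjusted p = 0.297), and Eif2ak2, the kinase PKR, at 284, 365, 555 and 561 and 1871, 1002, 772, 596 and 617 (log2 1.05 ± 0.34, limma adjusted p = 0.309). The 2 went opposite ways, and neither overlapped between the groups. Atf3, a stress-induced factor of the same list named here because DESeq2 called it, was at 49516, 58632, 55275 and 72148 and 91827, 70003, 81276, 80222 and 78877, with S9 inside the control range (log2 0.46 ± 0.15, DESeq2 adjusted p = 0.0223).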

How the data were processed

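The deposited table holds a signal per gene, normalized reads. By its name these are DESeq-normalized values, taken here as read counts that the authors divided by size factors. That no log or correction for length was applied was inferred from the whole multiples described below. The submitters' processing notes name FastQC, STAR 2.4.0, Picard, SAMtools and the build mm10, and the header names FAST DB gene models. No counting tool or strand setting is recorded, so reads of a gene cannot be told from those of an overlapping, antisense or near-identical one. All nonzero values (100%) were whole multiples of their column's step to within 0.01 reads, which gave back whole reads for library totals of 33383559 to 46489349. These carry no molecular identifiers and are not separate molecules.

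Genotypes were compared by limma 3.58.1 under R 4.3.3 on log2(value + 1), with a trend of the variance on the mean, in 5 Mye-/- and 4 fl/fl libraries, two-sided. The fit covered the 15288 features that reached 10 normalized reads in 4 or more libraries, with Benjamini-Hochberg adjustment over all of them and a threshold of 0.05. Log2 differences are Mye-/- minus fl/fl, and the pseudocount understates those of low genes. DESeq2 1.42.0 and edgeR 4.0.16 were run on the whole reads. The procedures were tested on simulated data with known changes, where DESeq2 called more unchanged genes than limma or edgeR. P-values take each library as a separate mouse, which the labels do not state. Transcript lengths and exon overlaps came from GENCODE M21, near-identical copies from blastn 2.17.0, and promoter windows from RefSeq.

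The members, the role groups and the lists of other genes and markers were chosen with earlier results of these data known. Named genes are all sensors and factors, in each other role those called by limma or DESeq2 and otherwise the 4 with the smallest limma p, and in each further list the 2 with the smallest p; other members are given more briefly, and Hspa5, Dnajb9 and Atf3 were described at more length after their values were seen. Other pseudocounts, filters, scalings, limma settings, age, detected features and leaving out libraries were tried. Leaving out S1 and S3 together, and DESeq2 with age or without single libraries, were chosen after the data were seen. The value of 1 marker gene is not reported here.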

Additional observations from a re-analysis of the deposited data

Results flagged for a closer look

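In 5 of the 84 groups of values examined (42 genes in each genotype), 1 library lay far from the rest of its group by Dixon's 95% criterion; chance gives about 1 in 20. In Mye-/- S8, Dnajb9 was at 7288 (3281 to 4006 in the other Mye-/- libraries), Ssr3 at 27312 (18185 to 20646), Ssr4 at 12248 (6709 to 8158) and Edem1 at 9015 (6493 to 6982). In fl/fl S1, Derl1 was at 13504 (6303 to 7374 in the other controls). S8 was the source of 4 of the 5, and leaving it out turned the positive difference of Dnajb9 negative.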

How the results depend on the processing

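Under all 24 alternatives limma, edgeR and DESeq2 called no member as higher, and only DESeq2 on whole reads (7) called any as lower. Members lower at an unadjusted p under 0.05, 17 as reported, numbered 11 without the intensity trend, 11 with detected features as a covariate, 2 with age as a covariate, 1 in 11-week-old mice only, and 12 to 20 when 1 library was left out. Members higher, 2 as reported, numbered 1, 1, 1 and 0 under the same 4 settings, 0 when S1 and S3 were omitted together, and 1 to 3 when 1 library was left out (1 without fl/fl S1). DESeq2's 7 lower calls became 0 with age as a covariate, 0 in 11-week-old mice only and 0 to 12 without 1 library (fl/fl S4 0, S3 3, S5 4, S1 6; Mye-/- S9 1, S11 1, S10 2, S12 9, S8 12). The median of the chaperones was -0.17 with age as a covariate and -0.17 in 11-week-old mice, that of all members -0.14 and -0.14, and that of the sensors 0.26 with S1 and S3 omitted; that of the degradation genes ran from -0.14 (without Mye-/- S10) to 0.025 (without S11). Signs reversed in 9 of the 42 members: Atf4 (-0.13 with detected features as a covariate), Eif2ak3 (-0.10 with age, -0.10 in 11-week-old mice, -0.00027 with DESeq2, -0.074 to 0.25 without 1 library), Ddit3 (-0.34 to 0.33 without 1 library), Hspa5 (0.068 with age, 0.068 in 11-week-old mice, -0.33 to 0.032 without 1 library), Ssr3 (0.0033 and 0.0033) and Stt3b (0.032 and 0.032) with age and in 11-week-old mice, Dnajb9 (-0.032 to 0.26 without 1 library), Derl1 (0.033 with S1 and S3 omitted, -0.27 to 0.10 without 1 library) and Syvn1 (-0.069 with age, -0.069 in 11-week-old mice, -0.013 with array weights, -0.0013 with S1 and S3 omitted, -0.10 to 0.14 without 1 library). The other 33 had the same sign under all 24 alternatives. In limma, age as a covariate and 11-week-old mice only give the same log2 differences and are not separate checks. The cause of these changes of count, median and sign was not tested, beyond the smaller number of libraries where some were left out. No paired analysis was possible because the groups share no replicate numbers.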
